A study of Mus musculus with 8 samples.

Results

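Hox genes encode homeodomain transcription factors that give cells along the head-to-tail and limb axes their regional identity. In mouse they lie in 4 clusters, HoxA to HoxD, in which the order of the genes on the chromosome follows the order of their expression domains in the embryo, from anterior paralogs (low numbers) to posterior ones (high numbers). Cultured fibroblasts are known to keep much of the Hox pattern of the place they came from, so a Hox profile carries positional information about a fibroblast preparation. Hox proteins bind DNA together with TALE cofactors of the Pbx, Meis and Pknox families, retinoic acid and Cdx factors are upstream inputs, and Polycomb and Trithorax complexes hold the clusters silent or open.

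The members were all genes whose platform symbol begins with Hoxa, Hoxb, Hoxc or Hoxd and a number, with the brightest probe set by mean value standing for the gene. This gave 36 of the 18193 genes named on the arrays, made up of 33 of the 39 protein-coding Hox genes in the RefSeq table used here and the antisense or opposite-strand genes Hoxa11os, Hoxb5os and Hoxd3os1. HoxA had 10 members, HoxB 10, HoxC 7 and HoxD 9. By paralog number, 11 were anterior (1 to 4), 10 central (5 to 8) and 15 posterior (9 to 13). Of the 36, 28 had a mean above the 25th percentile of all genes (4.17 on the log2 scale) and were tested. The 8 below it were Hoxa4, Hoxa13, Hoxb1, Hoxb7, Hoxd1, Hoxd3, Hoxd3os1 and Hoxd12. A further 3 probe sets are annotated to a pair of Hox genes each (Hoxd4 with Hoxd3 for 2 of them, Hoxb8 with Hoxb7 for the other) and were kept apart.

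The arrays were hybridised with RNA from E14.5 embryonic fibroblasts of C57BL6/J mice. There were 4 groups of 2 arrays: Hif-p4h-1 knockout (-/-) cells in hypoxia, knockout cells in normoxia, wild-type (+/+) cells in hypoxia and wild-type cells in normoxia, where Hif-p4h-1 is the oxygen-sensing prolyl hydroxylase encoded by Egln2. The labels put 1 array of each group in a set marked as the 2nd, called the second set here, and the other 4 arrays are called the first set. The labels give no oxygen level, no duration of hypoxia, no part of the embryo, no number of embryos behind a culture and nothing on what separated the sets, so a p-value here reflects array-to-array spread that may be technical.

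Over all genes the first principal component held 54.1% of the variance among the arrays and the second 25.7%. Egln2 read 8.85 and 8.66 (log2) in the hypoxic and 8.34 and 8.0 in the normoxic knockout arrays, against 9.13 and 8.95 in the hypoxic and 9.07 and 8.84 in the normoxic wild-type arrays, the second-set array first in each pair, and differed in normoxia by -0.785 ± 0.089 (limma, adjusted p = 0.0489). Nothing used here says whether its probe set lies in the deleted stretch. The 12 fibroblast markers had a mean log2 value of 11.28 to 11.46 in the second set and 11.35 to 11.63 in the first, although Lum, a collagen-binding proteoglycan, read 5.46 to 6.44 in the second set and 7.68 to 9.69 in the first. The skeletal muscle genes Myog and Myh3 stood apart on both wild-type arrays of the first set, at 7.96 and 8.04 for Myog and 8.35 and 8.53 for Myh3, while the other 6 arrays lay between 3.48 and 4.33. Where leaving out those 2 arrays changed the call of a Hox gene over both genotypes, this is stated. Calls of other genes were not rechecked in this way.

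Most of the Hox difference among these arrays lay between the sets, in both genotypes and both oxygen conditions. In the second set 18 of the 28 tested members were higher, Hoxd13 was lower and 9 did not pass the test (limma, Benjamini-Hochberg adjusted p under 0.05 over 13647 genes). That is 67.9% of the tested members, beside 46.1% of all tested genes, of which 25.4% were higher and 20.7% lower. The median second-minus-first difference of the tested members was 0.60 on the log2 scale, against 0.03 over all tested genes, and its median size was 0.61 against 0.215. Over all 36 members, with no filter, the median was 0.33. All 4 second-set arrays lay above all 4 first-set arrays for 19 members and below them for Hoxd13, while the sets overlapped for 16 members, and over all tested genes these shares were 18.3% above and 13.8% below. The calls numbered 18 or 19 when any 1 array was left out and 17 without both first-set wild-type arrays, where Hoxa11, Hoxc5 and Hoxc6 were lost and Hoxa5 was gained.

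The clusters differed in how many members were called. HoxC was higher as a block, with 7 of 7 tested members called higher and a median difference of 0.65. HoxB had 6 of 8 called higher and a median of 0.64. HoxA had 3 of 8 called higher and a median of 0.16, and HoxD had 2 called higher, 1 called lower and 2 not called out of 5, with a median of 0.225 (log2). By position, 5 of 6 anterior, 6 of 9 central and 7 of 13 posterior members were called higher, with medians of 0.61, 0.65 and 0.35. No test was made of the difference between clusters or positions. In bulk RNA, fewer cells of a type and less RNA per cell cannot be told apart.

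**Figure D1:**
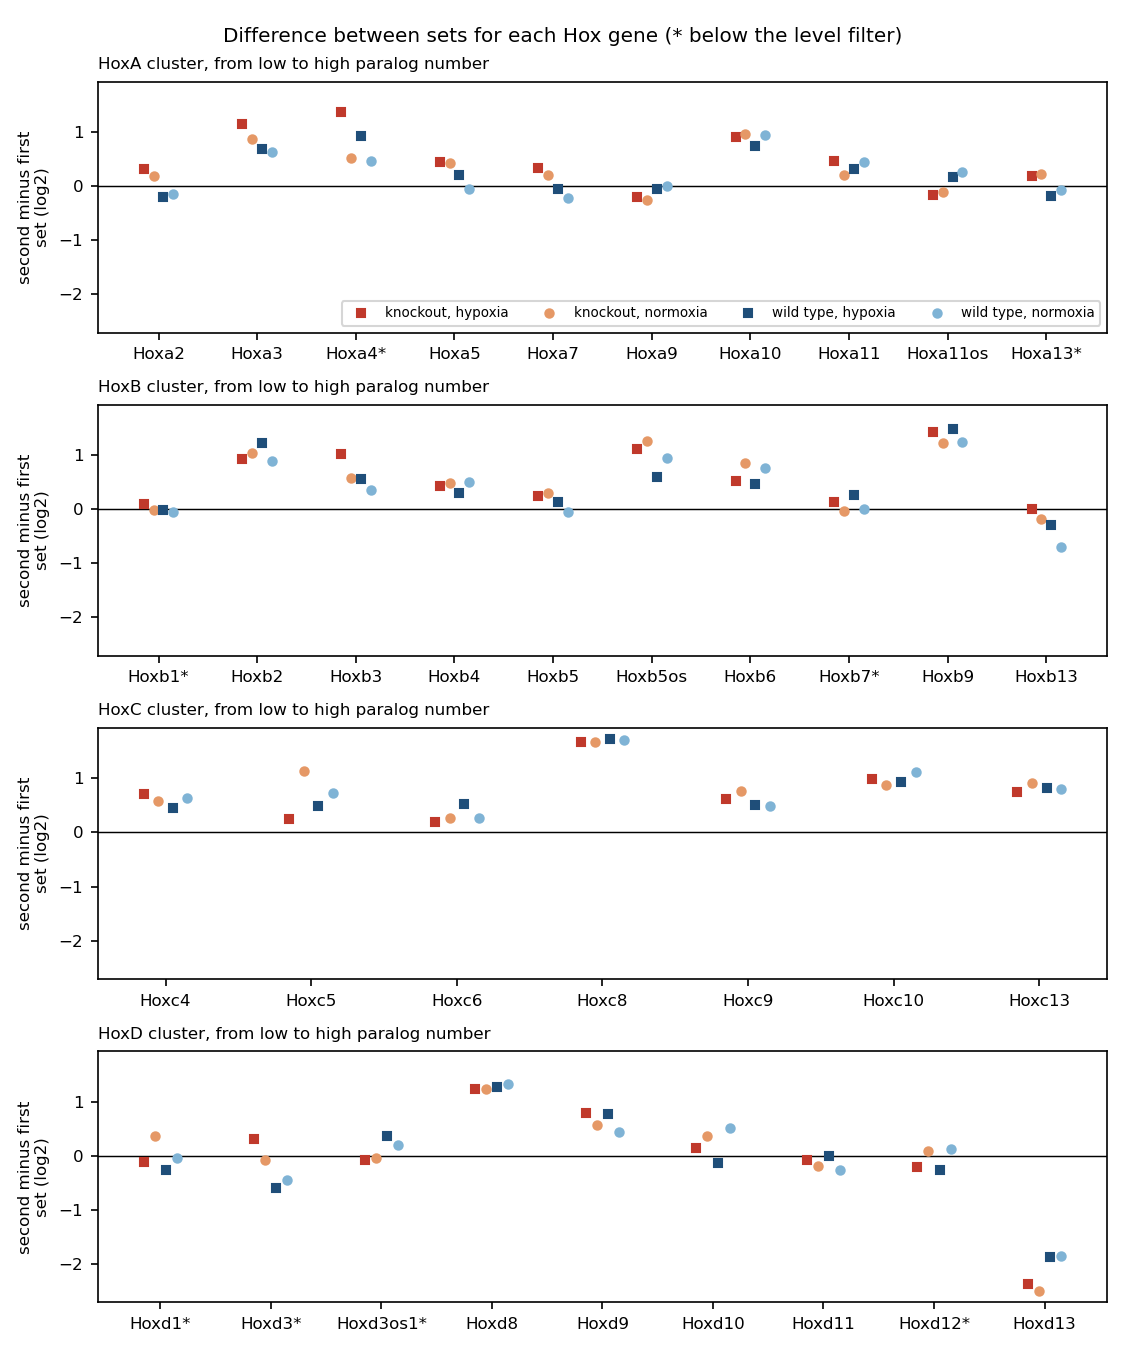
Second-set minus first-set value (log2) of each Hox gene in the 4 groups, 1 point per group, by rising paralog number within each cluster, with * for members below the filter. All points of the 7 HoxC genes lie above 0, and the 4 points of Hoxd13 lie between -1.85 and -2.5.

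In the values that follow, each set's 4 arrays are given in the order hypoxic knockout, normoxic knockout, hypoxic wild type and normoxic wild type, on the log2 scale. HoxD, whose posterior genes pattern the distal limb and the genital tubercle, showed the widest spread. Hoxd13, the most posterior member, which acts in digits and external genitalia, read 6.41, 6.39, 6.8 and 6.79 in the second set, against 8.78, 8.89, 8.68 and 8.64 in the first set. All 4 second-set arrays lay well below every first-set array, a difference of -2.15 ± 0.12 (SE), or 4.44-fold lower (limma, adjusted p = 1.3e-05), and 28 of the 13647 tested genes (0.205%) had a larger difference in size. Hoxd8, the most anterior HoxD gene tested, read 8.2, 8.17, 8.45 and 8.51 in the second set, against 6.96, 6.93, 7.18 and 7.19 in the first set. Its sets were separated in the opposite direction, by 1.27 ± 0.070 (limma, adjusted p = 1.2e-05). Hoxd9 read 6.85, 6.37, 6.62 and 6.48 in the second set, against 6.06, 5.8, 5.85 and 6.04 in the first set, without overlap, and differed by 0.64 (limma, adjusted p = 9.9e-04). Between Hoxd9 and Hoxd13 on the chromosome, 2 genes had intermediate differences that did not pass the test, 0.225 for Hoxd10 and -0.13 for Hoxd11. Along the tested HoxD genes the difference thus stepped down from Hoxd8 through Hoxd9, Hoxd10 and Hoxd11 to Hoxd13. These steps leave out the HoxD members below the filter. In a fit with no filter Hoxd12, between Hoxd11 and Hoxd13, differed by -0.065. Hoxd1, Hoxd3 and Hoxd3os1 differed by -0.01, -0.20 and 0.11, and none of these members was called.

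**Figure D2:**
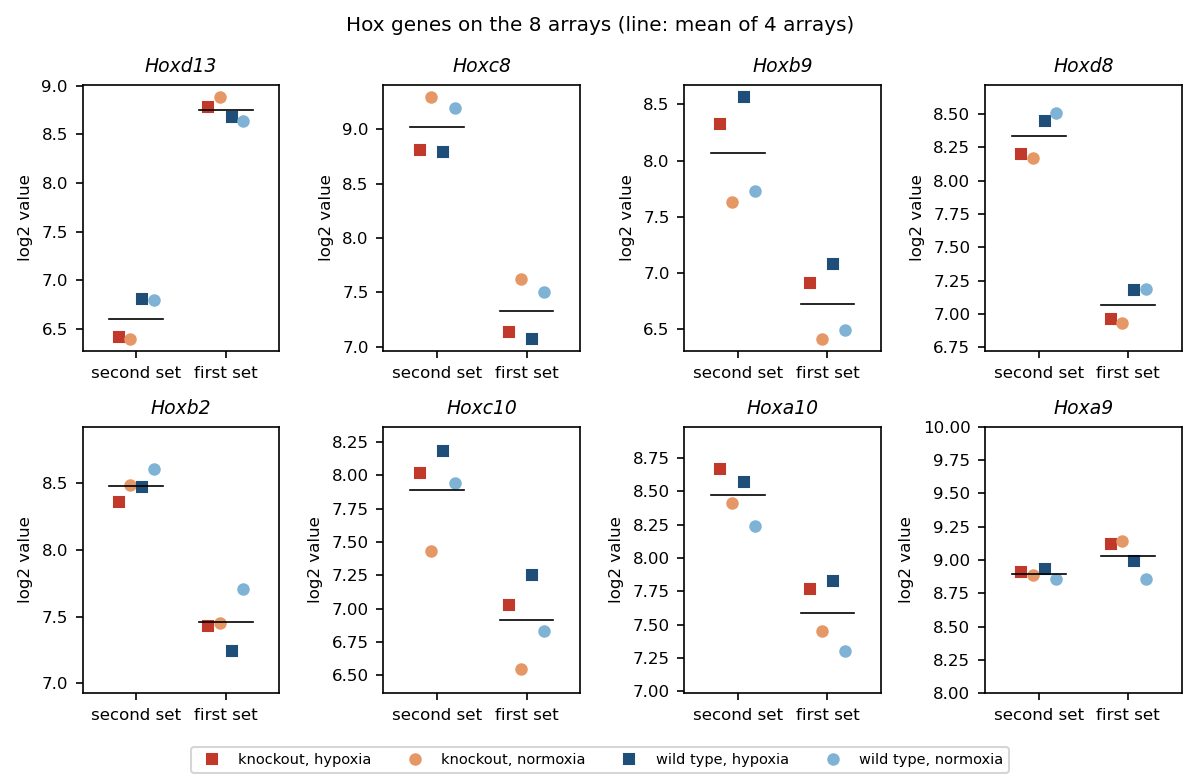
Log2 values on the 8 arrays for 8 Hox genes, second set left and first set right, with the mean of each set's 4 arrays as a line and a separate y axis per gene. Hoxd13 is the only one of the 8 with the second set wholly below the first, and for Hoxa9 the sets overlap.

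The lower Hoxd13 value rested on 1 of its 2 probe sets. The other read 4.37, 4.1, 4.31 and 4.41 in the second set, against 4.55, 4.38, 4.82 and 4.54 in the first set, so its sets overlapped, and the difference of -0.275 was in the same direction but did not pass the test (limma over all 34948 named probe sets, adjusted p = 0.0965). The mean of both probe sets gave a difference of -1.21. For Hoxd8 the second probe set also separated the sets, by 1.00 (limma, adjusted p = 2.5e-04). Of the 2 probe sets annotated to Hoxd4 and Hoxd3 together, 1 read 4.78 to 5.19 in the second set and 4.85 to 5.54 in the first. The other read 4.69 to 5.11 in the second set and 4.02 to 4.72 in the first, so the sets overlapped for both. The sequences just upstream of the RefSeq starts of Hoxd13 and Hoxd8 are shown because these genes had the lowest and highest differences among the tested HoxD genes. Each is 250 bases of the gene's own strand in GRCm38.p6, both on the + strand, chr2:74667975-74668224 for Hoxd13 and chr2:74704365-74704614 for Hoxd8. Capitals mark ACGTG or GCGTG, the core of the hypoxia response element that HIF binds, and AGGTCA, the half-site of retinoic acid receptors, on either strand.
Hoxd13: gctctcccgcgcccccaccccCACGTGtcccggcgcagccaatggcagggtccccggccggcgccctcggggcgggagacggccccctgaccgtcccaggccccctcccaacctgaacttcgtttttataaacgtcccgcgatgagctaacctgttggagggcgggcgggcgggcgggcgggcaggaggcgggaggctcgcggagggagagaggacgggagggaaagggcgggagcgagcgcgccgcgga
Hoxd8: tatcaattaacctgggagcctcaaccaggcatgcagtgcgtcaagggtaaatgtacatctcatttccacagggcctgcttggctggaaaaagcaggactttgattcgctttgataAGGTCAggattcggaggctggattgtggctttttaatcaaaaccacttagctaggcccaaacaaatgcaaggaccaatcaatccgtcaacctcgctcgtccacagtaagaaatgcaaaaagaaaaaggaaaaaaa
The Hoxd13 window held a pair of ACGTG matches from the palindrome CACGTG and no AGGTCA, and the Hoxd8 window held 1 AGGTCA and no HIF core. Across all 32851 promoter windows of the table, 16.6% held ACGTG and 14% held AGGTCA. Of the 23 windows found for 21 members, 5 held ACGTG and 5 held AGGTCA.

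HoxC genes pattern the thoracic and lumbar trunk. Hoxc8, which specifies thoracic vertebrae and brachial motor neurons, read 8.81, 9.3, 8.79 and 9.2 in the second set, against 7.14, 7.62, 7.07 and 7.5 in the first set. The sets did not overlap, and the difference of 1.69 ± 0.064 (limma, adjusted p = 6.9e-06) was nearly equal in all 4 groups, at 1.67 to 1.72. Hoxc10, a lumbar and hindlimb gene, read 8.02, 7.43, 8.18 and 7.94 in the second set, against 7.03, 6.55, 7.25 and 6.83 in the first set. It differed by 0.98 ± 0.078 (limma, adjusted p = 4.7e-05), again with no overlap between sets. Hoxc13, the most posterior HoxC gene and one known for its role in hair and nails, read 6.88, 6.74, 6.77 and 6.78 in the second set, against 6.14, 5.83, 5.94 and 5.98 in the first set. It was higher by 0.82 ± 0.085 (limma, adjusted p = 1.5e-04), the direction opposite to that of Hoxd13.

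The remaining HoxC genes were higher by smaller amounts, and none of them had overlapping sets. Hoxc4, a cervical gene, read 7.12, 7.17, 7.22 and 7.65 in the second set, against 6.4, 6.58, 6.77 and 7.01 in the first set. Hoxc5, also cervical, read 6.94, 7.39, 6.96 and 7.29 in the second set, against 6.7, 6.25, 6.47 and 6.56 in the first set. These were differences of 0.60 and 0.65 (limma, adjusted p = 6.5e-04 and 0.00555). Hoxc9, a thoracic gene, read 7.12, 7.05, 7.13 and 7.21 in the second set, against 6.51, 6.28, 6.63 and 6.72 in the first set, a difference of 0.59 (limma, adjusted p = 8.5e-04). Hoxc6, another thoracic gene, read 6.29, 6.3, 6.35 and 6.24 in the second set, against 6.1, 6.04, 5.83 and 5.98 in the first set. Its difference of 0.31 (limma, adjusted p = 0.0283) had the largest adjusted p of the 19 calls and was kept in 2 of the 8 fits that left out 1 array, although both of its further probe sets were also called higher, by 0.34 and 0.43. Without both first-set wild-type arrays Hoxc6 and Hoxc5 were no longer called (adjusted p = 0.178 and 0.129).

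HoxB held the posterior gene Hoxb9, which acts in rib and forelimb patterning. Hoxb9 read 8.33, 7.63, 8.57 and 7.73 in the second set, against 6.91, 6.41, 7.08 and 6.49 in the first set. It was higher by 1.34 ± 0.083 (limma, adjusted p = 1.7e-05), with every second-set array above every first-set array. The anterior gene Hoxb2, which patterns the hindbrain, read 8.36, 8.49, 8.47 and 8.61 in the second set, against 7.43, 7.45, 7.24 and 7.71 in the first set. The sets did not overlap, and the difference was 1.02 ± 0.080 (limma, adjusted p = 4.3e-05). Hoxb3, a gene of the hindbrain and pharyngeal arches, read 7.46, 7.48, 7.7 and 7.55 in the second set, against 6.43, 6.91, 7.15 and 7.19 in the first set, and differed by 0.63 (limma, adjusted p = 0.00235). Hoxb4, a cervical gene also known from blood stem cells, read 7.39, 7.16, 7.43 and 7.17 in the second set, against 6.96, 6.67, 7.13 and 6.67 in the first set, and differed by 0.43 (limma, adjusted p = 0.00282). For Hoxb4 the further probe set gave 0.61 and was called, whereas that of Hoxb3 gave 0.215 and was not.

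In the middle of HoxB the antisense gene Hoxb5os and its coding partner read differently. Hoxb5os read 8.49, 8.45, 8.05 and 8.14 in the second set, against 7.37, 7.18, 7.46 and 7.19 in the first set, a difference of 0.98 ± 0.11 (limma, adjusted p = 2.3e-04). Hoxb5 differed by 0.16 and did not pass the test. The antisense label comes from the platform annotation, and which strand the probes read was not checked. Hoxb6, a thoracic gene, read 6.44, 6.51, 6.45 and 6.61 in the second set, against 5.91, 5.66, 5.99 and 5.85 in the first set, and was higher by 0.65 (limma, adjusted p = 0.0011). Hoxb7 lay below the filter, but the probe set annotated to Hoxb8 and Hoxb7 together was higher by 1.16 (limma over all named probe sets, adjusted p = 9.6e-05). Hoxb13, a gene of the tail and prostate that lies apart from the rest of HoxB, read 4.75, 4.38, 4.73 and 4.38 in the second set, against 4.75, 4.56, 5.02 and 5.07 in the first set. Its sets overlapped, and it was not called over all groups (difference -0.29, limma, adjusted p = 0.0994).

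HoxA was split between a few separated genes and a flat remainder. Hoxa10, a gene of the lumbar spine and the uterus, read 8.67, 8.41, 8.57 and 8.24 in the second set, against 7.77, 7.45, 7.83 and 7.3 in the first set. Hoxa3, which acts in the thymus and the third pharyngeal arch, read 6.1, 5.84, 5.88 and 5.45 in the second set, against 4.96, 4.98, 5.2 and 4.82 in the first set. Neither gene had overlapping sets, and they were higher by 0.885 ± 0.072 and 0.83 ± 0.11 (limma, adjusted p = 5.1e-05 and 5.9e-04). Hoxa11, which patterns the forearm and lower leg, read 7.26, 6.81, 7.11 and 6.82 in the second set, against 6.8, 6.61, 6.8 and 6.38 in the first set, and was higher by 0.35 (limma, adjusted p = 0.0103). That call was lost without both first-set wild-type arrays (adjusted p = 0.114). The further probe sets gave smaller differences here. The second of Hoxa10 gave -0.05 and the 3 others of Hoxa3 gave 0.20, 0.09 and -0.10, none of them called. That of Hoxa10 had a mean of 3.76 and the last of Hoxa3 a mean of 3.045, both below the filter value of 4.17. The Hoxa3 probe set that gave 0.09 lay close to that value, at 4.195. So low a level limits what these can show. With the mean of all probe sets of a gene the differences were 0.42 for Hoxa10 and 0.255 for Hoxa3, both called.

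Hoxa5, a gene of the lung and cervical region, read 8.18, 8.05, 7.84 and 7.6 in the second set, against 7.73, 7.62, 7.63 and 7.66 in the first set. The sets overlapped through the wild-type arrays, and the difference of 0.26 was not called (limma, adjusted p = 0.0633). Without both first-set wild-type arrays it was called, at 0.44 (adjusted p = 0.0346). Its other probe set gave 0.43 over all arrays and was called (limma over all named probe sets, adjusted p = 0.0155). Hoxa9, a posterior gene of blood progenitors and the lumbar region, read between 8.86 and 8.93 in the second set and between 8.86 and 9.14 in the first. Its difference of -0.13 did not pass the test (limma, adjusted p = 0.151). Hoxa7, Hoxa2 and Hoxa11os differed by 0.07, 0.04 and 0.03 and were not called. Among members below the filter, Hoxa4 read 4.23, 3.26, 3.86 and 3.32 in the second set, against 2.86, 2.74, 2.93 and 2.85 in the first set. In a fit with no filter its difference was 0.82 ± 0.15 (limma over 18193 genes, adjusted p = 0.00216). That fit called 19 of the 36 members higher and 1 lower, beside 34.3% of all genes.

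By genotype, in a second model with a set by genotype term, the second set differed from the first in 18 of the 28 tested members in knockout cells and in 20 in wild type, beside 34.1% of all genes in knockout (18.5% higher, 15.6% lower) and 41.8% in wild type (22.4% higher, 19.4% lower). Hoxa5 was called higher in knockout and not in wild type, and Hoxa11 and Hoxc6 (higher) and Hoxb13 (lower) in wild type and not in knockout. None of the 28 passed the test of the difference between genotypes, which called 1.67% of all genes, and 4 had an unadjusted p under 0.05. The member with the smallest adjusted p there was Hoxd13, which was lower in knockout than in wild type in the second set by -0.39 in hypoxia and -0.40 in normoxia, and in the first set differed by 0.10 in hypoxia and 0.25 in normoxia (interaction -0.57 ± 0.15, limma, adjusted p = 0.113). With the mean of its 2 probe sets the interaction was -0.24 (adjusted p = 0.61). The counts within a genotype depended on single arrays, and the share of all genes called in those fits was not counted. Without any 1 of the knockout arrays the knockout count was between 0 and 3, reaching 0 without either normoxic one. Without any 1 of the wild-type arrays the wild-type count was 8 or 9.

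Several other measures also moved with the set. The 6 macrophage markers, with a mean log2 value of 5.71 to 6.51 on the second-set arrays and 6.34 to 7.98 on the first-set arrays, had 5 of 6 called lower, with a median difference of -1.13. In the second model their median was -1.37 in wild type and -0.62 in knockout. The difference between genotypes was called for 2 of 6, beside 1.67% of all genes. Adgre1 read 6.81 and 6.34 on the hypoxic and normoxic wild-type arrays of the first set and 4.41 to 4.97 on the others. The 5 skeletal muscle markers averaged 5.87 to 6.13 in the second set and 5.34 to 7.65 in the first. Of the 12 fibroblast markers 5 were called higher and 2 lower, among them Lum (-2.62), with a larger difference than any Hox gene, Pdgfra (-0.92), Thy1 (0.61) and Pdgfrb (0.58). Of the tested markers of other cell types, 2 of 2 endothelial and 1 of 4 cartilage genes were called lower, 1 of 5 epithelial and 1 of 4 skeletal muscle genes higher, and of 4 neural genes 1 was called higher and 1 lower. The 3′-minus-5′ value of the control probe sets, a measure of RNA integrity, was 0.31 to 0.47 for Actb in the second set and 0.53 to 0.73 in the first, and for Gapdh 0.14 to 0.47 in the second set and 0.33 to 0.52 in the first. Their part in the Hox differences was not tested.

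Other regional identity genes were read beside the Hox genes. Of 37 tested region markers 11 were higher and 6 lower in the second set (45.9% called, close to the 46.1% of all tested genes), with a median of 0.09. Tbx4, a hindlimb and lung gene, read 5.01, 4.94, 5.24 and 5.31 in the second set, against 7.45, 7.27, 7.48 and 7.31 in the first set. Its difference of -2.25 (limma, adjusted p = 6.9e-06) was of the same direction and nearly the same size as that of Hoxd13. The proximal limb gene Shox2 (0.96), the urogenital and scapula gene Emx2 (1.08) and the branchial arch gene Dlx2 (1.06) were higher in the second set. The forelimb gene Tbx5 read 5.44 to 5.64 in the second set and 5.57 to 5.88 in the first, and the hindlimb gene Pitx1 read 6.21 to 6.42 in the second set and 6.27 to 6.36 in the first, so both overlapped.

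The TALE list held the Pbx, Meis and Pknox cofactors of Hox proteins and also Tgif1 and Tgif2. Of its 10 tested genes 6 were higher, 1 lower and 3 not called in the second set, with a median of 0.30. That is 70% called, beside 46.1% of all tested genes (25.4% higher, 20.7% lower). Meis1, a cofactor and proximal limb gene, read 7.95, 8.58, 8.18 and 8.53 in the second set, against 6.94, 7.25, 7.23 and 7.55 in the first set. It was higher by 1.07 (limma, adjusted p = 5.0e-05), Pknox2 by 0.55 and Tgif1 by 0.35, whereas Pbx3 was lower, with a difference of -0.33. Of 30 tested Polycomb and Trithorax genes 3 were higher and 13 lower (53.3% called), with a median of -0.14. The lower ones included the Polycomb genes Mtf2 (-0.73), Ezh2 (-0.54) and Rbbp4 (-0.35) and the insulator gene Ctcf (-0.52). Also lower were the Trithorax gene Kmt2a (-0.97), with the largest difference of the list, Rbbp5 (-0.45) and Kdm6a (-0.335). Those higher were Ezh1 (0.62), Ring1 (0.36) and Bmi1 (0.25). Of 17 retinoic acid and Cdx inputs 5 were higher and 4 lower (52.9% called). Those with the smallest adjusted p were Crabp2, a retinoic acid binding protein (-1.33), Dhrs3, which reduces retinaldehyde (1.00), and the retinoic acid synthesis genes Aldh1a1 (-1.52) and Aldh1a3 (1.12).

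The 24 nearest tested genes outside the clusters, 3 on each side of each, had 4 higher, 2 lower and 18 not called and a median of 0.01. That is 25% called, beside 46.1% of all tested genes. Those called with the smallest adjusted p were Nfe2l1 (0.72) and Cbx1 (-0.51) beside HoxB, Hnrnpa1 (-0.51) beside HoxC and Skap2 (0.50) beside HoxA. Directly beside the posterior end of HoxD, Evx2 differed by -0.06 and was not called.

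**Figure D3:**
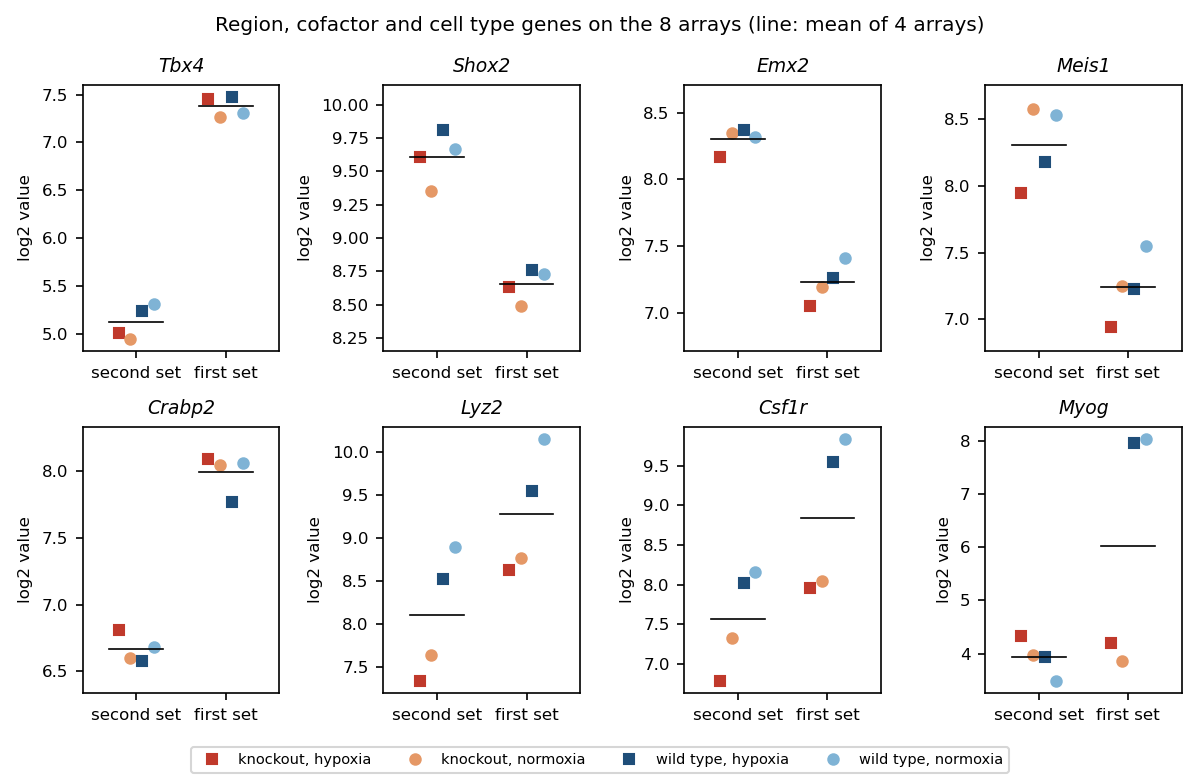
Log2 values on the 8 arrays for the region genes Tbx4, Shox2 and Emx2, the cofactor Meis1, the retinoic acid gene Crabp2, the macrophage genes Lyz2 and Csf1r and the muscle gene Myog, second set left and first set right, with the mean of each set's 4 arrays as a line. Tbx4 and Crabp2 have the second set wholly below the first, Shox2, Emx2 and Meis1 wholly above, and Myog is high on both first-set wild-type arrays.

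Hypoxia moved fewer Hox genes and by less. Over both genotypes 6 of the 28 tested members rose in hypoxia, 1 fell and 21 did not pass the test, which is 25% of the tested members and close to the 28.7% called among all tested genes (13.6% higher, 15.2% lower). The median hypoxia-minus-normoxia difference of the tested members was 0.10 (log2), against 0.01 over all genes. The posterior genes Hoxb9, Hoxd10, Hoxc10, Hoxa10 and Hoxa11 made up 5 of the 6 rises, out of 13 posterior members tested, whose median was 0.19. Hoxb4 was the only one of 6 anterior members called and Hoxc8 the only one of 9 central members. Each of the 7 moved in its direction in 4 of 4 pairs of arrays. They were called on these same pairs, so this adds no support to the calls. Of all tested genes, called or not, 23.8% moved upward and 24.5% downward in 4 of 4 pairs.

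The calls depended on taking the set into account as a block. Without the replicate block 0 of the 28 members were called, and 3 with the set as a random block. The share of all genes called under these and the following settings was not counted. A drop particular to Hox genes thus cannot be told from a general one. The count was 4 without the second-set hypoxic or normoxic knockout array or the first-set hypoxic or normoxic wild-type array, and 2, Hoxb9 and Hoxc8, without both first-set wild-type arrays.

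Hoxb9 had the largest rise. In the second set it read 8.33 in hypoxia against 7.63 in normoxia in knockout cells and 8.57 against 7.73 in wild type, and in the first set 6.91 against 6.41 in knockout cells and 7.08 against 6.49 in wild type. The 4 hypoxia-minus-normoxia differences ran from 0.50 to 0.84, averaging 0.66 ± 0.083 (limma, adjusted p = 0.00112). Hoxc8 fell by about the same amount in every pair. It read 8.81 in hypoxia against 9.3 in normoxia in second-set knockout cells and 8.79 against 9.2 in second-set wild type, and 7.14 against 7.62 and 7.07 against 7.5 in the knockout and wild-type cells of the first set. These are differences of -0.49, -0.41, -0.48 and -0.43, averaging -0.45 ± 0.064 (limma, adjusted p = 0.00184). Both genes stayed called whichever 1 of the 8 arrays was left out.

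Hoxc10 rose by 0.59 and 0.24 in the knockout and wild-type cells of the second set and by 0.48 and 0.42 in those of the first, an average of 0.43 ± 0.078 (limma, adjusted p = 0.00487). Hoxa10 rose by 0.26 and 0.33 in the second set and by 0.32 and 0.53 in the first, in the same order, an average of 0.36 ± 0.072 (limma, adjusted p = 0.00759). For Hoxa10 the other probe set did not rise, at -0.11, and the mean of its probe sets gave 0.13, which was not called. That other probe set read only 3.63 to 3.93, below the filter value on every array. Without both first-set wild-type arrays neither Hoxc10 (adjusted p = 0.0565) nor Hoxa10 (adjusted p = 0.0639) passed the test.

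The remaining rises were less secure. Hoxd10, a gene of lumbar motor neurons and the limb, read 6.35 in hypoxia against 5.98 in normoxia in second-set knockout cells and 6.05 against 5.92 in second-set wild type, and in the first set 6.2 against 5.62 in knockout cells and 6.18 against 5.4 in wild type. Its average of 0.465 ± 0.12 (limma, adjusted p = 0.0217) covered differences from 0.13 to 0.78, and it was called in 2 of the 8 fits that left out 1 array. Without both first-set wild-type arrays it was 0.30 (adjusted p = 0.125). Hoxa11 rose by 0.34 ± 0.086 (limma, adjusted p = 0.0206), with pairs from 0.19 to 0.45, and was called in 4 of the 8. Hoxb4 rose by 0.31 ± 0.081 (limma, adjusted p = 0.0218), with pairs from 0.23 to 0.46, and was called in 2 of the 8. Of members not called, one of the further probe sets of Hoxa3 rose by 0.52 (limma over all named probe sets, adjusted p = 0.0345), while the probe set used for Hoxa3 gave 0.26. Below the filter, Hoxd3os1 had a difference of -0.45 ± 0.10 in the unfiltered fit (limma, adjusted p = 0.016).

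The windows upstream of Hoxd10, Hoxa11 and Hoxb4, which are among the genes that rose in hypoxia, are shown. They are chr2:74691641-74691890 on the + strand for Hoxd10, chr6:52245811-52246060 on the - strand for Hoxa11 and chr11:96318017-96318266 on the + strand for Hoxb4, from RefSeq, GRCm38.p6, with capitals for the same motifs.
Hoxd10: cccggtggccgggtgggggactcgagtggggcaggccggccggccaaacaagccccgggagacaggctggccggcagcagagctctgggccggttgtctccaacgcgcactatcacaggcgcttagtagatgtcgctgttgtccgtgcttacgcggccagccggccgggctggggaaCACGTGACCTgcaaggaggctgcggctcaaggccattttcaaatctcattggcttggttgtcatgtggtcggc
Hoxa11: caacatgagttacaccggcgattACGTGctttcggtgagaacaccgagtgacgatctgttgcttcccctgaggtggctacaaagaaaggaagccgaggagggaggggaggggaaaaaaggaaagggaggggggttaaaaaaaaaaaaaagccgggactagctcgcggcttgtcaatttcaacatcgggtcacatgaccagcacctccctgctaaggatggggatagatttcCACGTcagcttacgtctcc
Hoxb4: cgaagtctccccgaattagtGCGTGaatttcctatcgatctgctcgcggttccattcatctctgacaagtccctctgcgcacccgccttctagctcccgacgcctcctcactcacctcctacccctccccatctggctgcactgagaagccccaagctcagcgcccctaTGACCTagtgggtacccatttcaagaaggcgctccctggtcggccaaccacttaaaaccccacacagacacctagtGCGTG
ACGTG was found at 2 positions for Hoxd10, both from 1 palindrome that overlaps an AGGTCA match, and at 2 for Hoxa11. The Hoxb4 window held 2 GCGTG and 1 AGGTCA. Hoxa10 also rose, and its windows are not shown: 1 held 2 GCGTG and the other held neither HIF core. Of the Hox windows 10 of 23 held either HIF core, beside 38.6% of all windows, and a match is a description of the letters only.

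**Figure D4:**
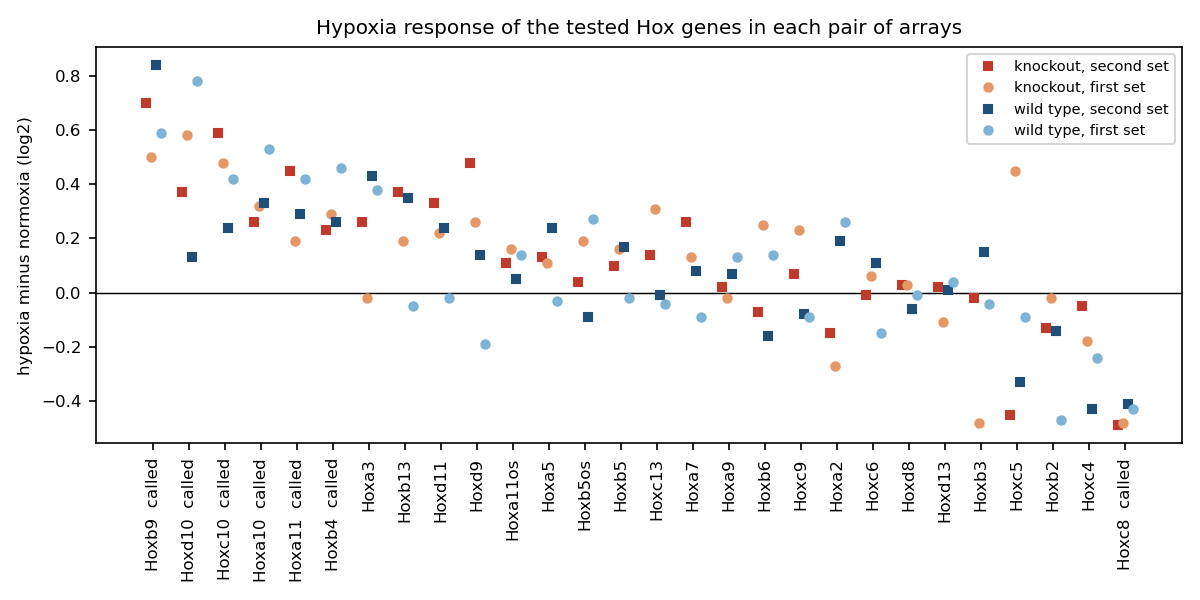
Hypoxia minus normoxia (log2) for each tested Hox gene in the 4 pairs of arrays of the same genotype and set, ordered by the average. The 7 genes marked as called lie on 1 side of 0 in all 4 pairs, with Hoxb9 at the top and Hoxc8 at the bottom.

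Within knockout cells alone Hoxb9 (0.60) and Hoxc10 (0.535) rose and Hoxc8 fell (-0.485), beside 10.1% of all genes called (4.98% higher, 5.13% lower). Within wild type Hoxb9 (0.715) and Hoxa10 (0.43) rose and Hoxc8 fell (-0.42), beside 16.4% of all genes (7.54% higher, 8.85% lower). Both counts of 3 became 0 without the replicate block, under a random block for the set and without both first-set wild-type arrays. The knockout count was also 0 without any 1 knockout array, and the wild-type count was 0 without the normoxic wild-type array of the second set and 1 without any other wild-type array. The difference between the genotypes in the response was called for 0 of 28 members and for 0 of all tested genes, and 0 members had an unadjusted p under 0.05.

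Companion genes moved in hypoxia as follows, beside 28.7% of all tested genes called (13.6% higher, 15.2% lower). Of the 10 TALE genes 2 rose and 2 fell, and of the 30 Polycomb and Trithorax genes 8 rose and 1 fell, with a median of 0.10. Among the 17 retinoic acid and Cdx inputs 2 rose and 5 fell, including falls of Dhrs3 (-0.84), Aldh1a1 (-0.79) and Aldh1a3 (-0.65) and a rise of Cyp26b1, which degrades retinoic acid (0.68). Of the 37 region markers 4 rose and 0 fell, namely Dlx2 (0.79), Pax1 (0.70), Tbx2 (0.54) and Lhx6 (0.51). Of the 24 neighbouring genes 2 rose and 8 fell. Single cell type markers were called as well. Rises were called for 1 of 4 cartilage genes (Sox9, 1.02) and 1 of 12 fibroblast genes (Twist1, 0.415). Of 6 macrophage genes 1 rose (Cd14, 0.43) and 1 fell (Lyz2, -0.36). Falls were called for 1 of 4 neural (Map2, -0.61), 1 of 5 epithelial (Epcam, -0.41) and 1 of 4 muscle genes (Acta1, -0.395). The other tested markers of these types were not called, and some differed in the other direction. The 3′ to 5′ control difference was higher in hypoxia by 0.10 to 0.17 for Actb and 0.04 to 0.33 for Gapdh in 4 of 4 pairs. The part of these markers and controls in the Hox results was not tested.

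No Hox gene passed the test for loss of Hif-p4h-1. Of the 28 tested members 0 passed the test for knockout against wild type over both oxygen conditions, in normoxia or in hypoxia (limma), beside 0.256%, 0.0366% and 0.0293% of all tested genes, and 4, 4 and 2 members had an unadjusted p under 0.05. The median difference over both conditions was 0.10 in HoxA, -0.11 in HoxB, 0 in HoxC and 0.02 in HoxD. The smallest adjusted p belonged to Hoxc4, which read 7.12 and 6.4 in hypoxic and 7.17 and 6.58 in normoxic knockout cells, against 7.22 and 6.77 in hypoxic and 7.65 and 7.01 in normoxic wild type, second set before first. It was lower in knockout cells in 4 of 4 pairs, by -0.10 to -0.48, averaging -0.345 ± 0.084 (limma, adjusted p = 0.21). Hoxd8 (-0.27 ± 0.070, adjusted p = 0.245), Hoxc10 (-0.29 ± 0.078, adjusted p = 0.258) and Hoxb3 (-0.33 ± 0.11, adjusted p = 0.384) also lay lower in 4 of 4 pairs, as did Hoxb9, Hoxc9 and Hoxb6, while Hoxd10, Hoxd11 and Hoxc8 lay higher in 4 of 4. These are 7 lower and 3 higher of the 28 members, beside 10.7% lower and 7.55% higher among all tested genes. The Hoxb3 value was -0.19 without the hypoxic knockout array of the first set, -0.155 without both first-set wild-type arrays and -0.18 with the mean of its probe sets. A p above the threshold does not show that the genotypes were alike.

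**Figure D5:**
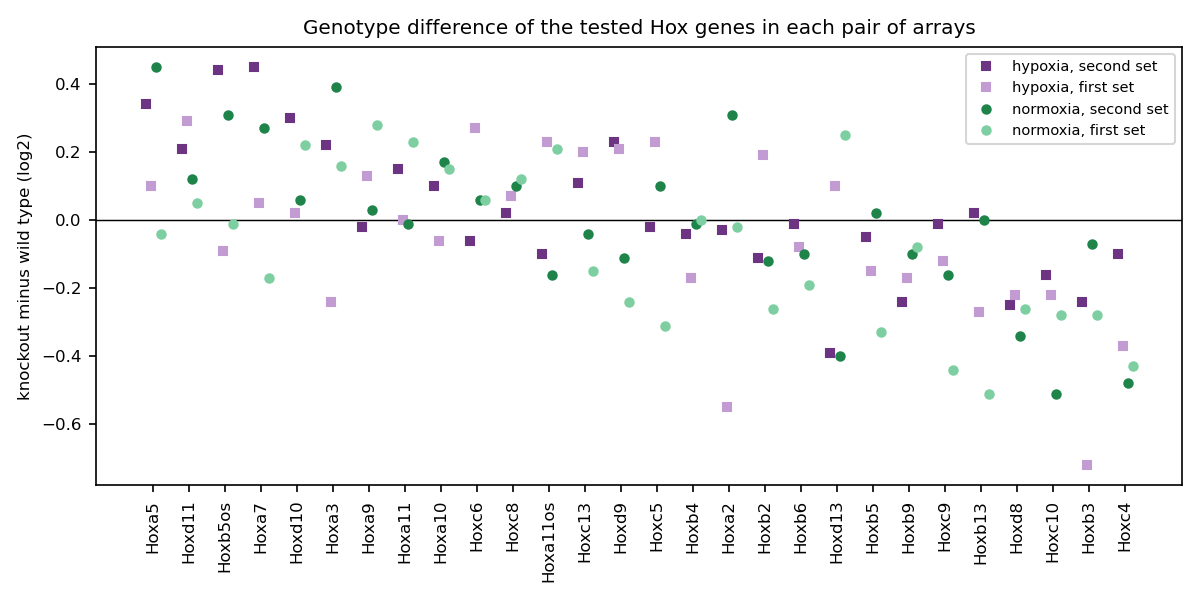
Knockout minus wild type (log2) for each tested Hox gene in the 4 pairs of arrays of the same oxygen condition and set, ordered by the average. For 18 genes the pairs do not all lie on 1 side of 0, while 7 genes (Hoxc4, Hoxb3, Hoxc10, Hoxd8, Hoxb9, Hoxc9 and Hoxb6) lie below 0 in all 4 and 3 (Hoxd10, Hoxd11 and Hoxc8) above.

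Of the companion lists, 0 TALE, Polycomb and Trithorax, retinoic acid and Cdx, region marker or neighbouring genes were called for knockout against wild type over both conditions. Macrophage markers had 3 of 6 called lower in knockout cells (Ptprc -1.63, Csf1r -1.36 and Lyz2 -1.19). The fibroblast markers had 2 of 12 called lower (Pdgfra -0.72 and Dcn -0.51), and the cartilage gene Col2a1 was called higher (0.74).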

How the data were processed

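The deposited table holds 1 log2 value per probe set and array, computed by the authors with RMA, per the submitters' processing notes, which give no version. RMA corrects background, equalizes the arrays' distributions and summarizes probes, so a shift common to all transcripts cannot be seen. The sources used here name no genome build for the probes. For arrays, their number limits the precision.

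Probe sets with 1 platform symbol were kept, with the probe set of highest mean for each gene. Genes with a mean under the 25th percentile were left out, so that 13647 were tested. In R 4.3.3, limma 3.58.1 (lmFit, then eBayes with trend) fitted 4 group means and the set to all 8 arrays (3 residual and 5.22 prior degrees of freedom). A second model added set by genotype. Every adjusted p is Benjamini-Hochberg over all genes tested, from limma, two-sided. The fit was tested on simulated data with independent noise on every array. Those data do not cover arrays of 1 set or culture that deviate together.

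The set enters as the replicate block. Second-minus-first differences of the groups correlated across genes at 0.710 to 0.850 in the 6 pairs of groups. Arrays of 1 set thus deviate together, and the label for the second set gives the pairing. Values on every array are given for members called in any of 11 contrasts, and for companion lists up to 4 members with the smallest adjusted p. Values of Hoxa4, Hoxa9, Hoxd11, the HoxD members below the filter, Evx2, Tbx5 and Pitx1 fall outside that rule. So do those of Ezh1, Ring1, Bmi1, Kmt2a, Rbbp5, Kdm6a, the cell type markers and further or shared probe sets. All of these were chosen after they were seen. The members and lists were chosen with earlier results of these data known. Neighbours and promoter windows came from RefSeq tables of GRCm38.p6, and motifs were counted on both strands.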

Additional observations from a re-analysis of the deposited data

Results flagged for a closer look

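For 3 members the hypoxia response ran in opposite directions in the sets, on all arrays of each. Hoxb6 gave -0.07 and -0.16 (log2, hypoxia minus normoxia) in the knockout and wild-type cells of the second set, against 0.25 and 0.14 in those of the first, a difference of -0.31 between the sets' means. Hoxd12, below the filter on low values, gave -0.03 and -0.20 in the second set, against 0.26 and 0.19 in the first, a difference of -0.34. Hoxb1, also below the filter, gave 0.02 and 0.01 in the second set, against -0.09 and -0.03 in the first, a difference of 0.075. It read only 2.68 to 2.78 over all arrays, where the lowest value of any probe set was 2.09. These differences between sets were not tested. The share of all genes with this pattern was not counted, so the 3 members cannot be read as an excess.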

How the results depend on the processing

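Apart from the replicate block, the alternatives were other filters on low values, the mean of all probe sets of a gene, no variance trend, centring each array on its median, leaving out each array and, chosen after seeing the data, leaving out both first-set wild-type arrays. None of the 37 named differences reversed under any of them. Most were named because they were called on these same arrays, so this adds no support to the calls. For hypoxia against normoxia over both genotypes, 7 members were called, against 0 with no replicate block, 3 with a random replicate block, 2 without both first-set wild-type arrays and 4 to 7 with 1 array left out. Within knockout and within wild type, 3 members each were called, against 0 with no block, 0 with a random block, 0 without both of those arrays and 0 to 3 with 1 array left out. For the second against the first set, 19 members were called, and 18 to 19 with 1 array left out. Within knockout the 18 calls became 0 to 17, and within wild type the 20 became 8 to 16. Counts for genotype and both interactions were 0 throughout. All these counts are of Hox members. Calls over all genes were counted only in the main fit and in that with no filter. With 2 arrays per group, a lone array left in a group is assumed to vary like the other groups, and 3 residual degrees of freedom limit every call.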
